A study of Mus musculus with 24 samples.

Results

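NF-κB is a family of transcription factors, and the genes described here are 10 members of its core circuit in the mouse heart during experimental autoimmune myocarditis (EAM), an inflammation of heart muscle raised by immunization with a cardiac myosin peptide. They were taken by gene symbol, matched to the Ensembl identifiers of the count table, and all 10 of the 41388 genes in that table were found and passed the filter on low counts at every time point. 5 encode the subunits (Nfkb1, Nfkb2, Rel, Rela and Relb), 2 encode inhibitors that hold the factor in the cytoplasm (Nfkbia and Nfkbie), 2 encode nuclear members of the inhibitor family (Nfkbiz and Bcl3), and Tnfaip3 encodes A20, an enzyme that switches the pathway off. RNA from a portion of the heart was sequenced from wild-type male BALB/c mice (BALB/cAnNCrl), with 4 EAM and 4 control hearts at day 10 (D10), day 15 (D15) and day 21 (D21), which makes 24 libraries. EAM mice, 8 to 10 weeks old at immunization, received 100 µg of the MyHC-α peptide in supplemented complete Freund's adjuvant on days 0 and 7, with pertussis toxin on day 0. Control mice of the same age and sex received the same adjuvant and toxin with PBS in place of the peptide, so every comparison is between hearts that had all been exposed to adjuvant and toxin. The study chose EAM mice for sequencing with heart inflammation in view where it could, and the heart portion holds all cell types together.

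At rest, NF-κB dimers sit in the cytoplasm bound to IκB proteins. Signals from receptors for TNF, IL-1 or microbial products reach the IKK kinase complex, which marks IκB for degradation and frees RelA and p50 (made from Nfkb1) to enter the nucleus; a slower, non-canonical branch uses NIK (Map3k14), p52 (made from Nfkb2) and RelB. Several of the genes that NF-κB switches on encode its own brakes, IκBα (Nfkbia), IκBε (Nfkbie) and A20 (Tnfaip3) among them. mRNA level says nothing of the location or activity of the proteins, which were not measured here.

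The genes lie on 8 chromosomes of GRCm38. Nfkb1 (ENSMUSG00000028163) spans chr3:135584655-135691547, Nfkb2 (ENSMUSG00000025225) chr19:46304320-46312385, Rel (ENSMUSG00000020275) chr11:23736847-23770970, Rela (ENSMUSG00000024927) chr19:5637483-5648130 and Relb (ENSMUSG00000002983) chr7:19606217-19629438. Nfkbia (ENSMUSG00000021025) spans chr12:55489410-55492647, Nfkbie (ENSMUSG00000023947) chr17:45555703-45563169, Nfkbiz (ENSMUSG00000035356) chr16:55811375-55838899, Bcl3 (ENSMUSG00000053175) chr7:19808462-19822770 and Tnfaip3 (ENSMUSG00000019850) chr10:19000910-19015657. The counts were taken over exons. Nfkb2 shares 531 exon bases, 11.6% of its own, with the non-coding gene AC114539.1, for which no counts were used here, and 299, or 6.52%, with Psd, both on the opposite strand, and Bcl3 shares 161, or 6.51%, with the antisense gene Gm16175; the sources used here do not say whether counting used strand, so reads in those bases cannot be told apart.

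Promoter sequence is shown because the circuit is known for feeding back on its own genes through κB sites, the short DNA sequences that NF-κB dimers bind. RefSeq promoters (GRCm38.p6, 250 bases before to 50 after a start site) were matched by symbol for 7 of the 10 members, with 10 start sites among them. The 10-base κB consensus, searched on both strands, matched in 8 of the 10 promoters and in 6 of the 7 members, Rela being the exception; it matched in 8.46% of all 32851 promoters and 9.55% of all 27025 genes in the same table. The windows below run from 150 bases before the start site through its first 20 bases, in the direction of transcription, with κB matches in capitals; for Nfkb2 and Tnfaip3, which have several start sites, the first listed is shown. They are chr7:19822736-19822905 (minus strand) for Bcl3, chr10:19015391-19015560 (minus) for Tnfaip3, chr11:23770950-23771119 (minus) for Rel, chr12:55492628-55492797 (minus) for Nfkbia, chr17:45555550-45555719 (plus) for Nfkbie, chr19:46304587-46304756 (plus) for Nfkb2 and chr19:5637391-5637560 (plus) for Rela.
Bcl3: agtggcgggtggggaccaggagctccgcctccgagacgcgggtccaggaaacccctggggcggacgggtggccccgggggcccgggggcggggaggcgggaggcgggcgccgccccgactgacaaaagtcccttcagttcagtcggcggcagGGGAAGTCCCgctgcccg
Tnfaip3: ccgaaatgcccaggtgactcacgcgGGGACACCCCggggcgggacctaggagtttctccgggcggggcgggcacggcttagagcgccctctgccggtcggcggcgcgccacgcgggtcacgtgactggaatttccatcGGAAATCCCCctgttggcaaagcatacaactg
Rel: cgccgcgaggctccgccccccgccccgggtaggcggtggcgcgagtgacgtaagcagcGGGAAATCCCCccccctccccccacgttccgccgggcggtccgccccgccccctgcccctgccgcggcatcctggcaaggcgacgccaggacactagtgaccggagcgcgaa
Nfkbia: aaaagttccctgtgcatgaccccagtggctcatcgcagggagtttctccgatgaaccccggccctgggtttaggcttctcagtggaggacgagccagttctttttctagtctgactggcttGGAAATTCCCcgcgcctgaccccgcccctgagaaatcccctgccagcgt
Nfkbie: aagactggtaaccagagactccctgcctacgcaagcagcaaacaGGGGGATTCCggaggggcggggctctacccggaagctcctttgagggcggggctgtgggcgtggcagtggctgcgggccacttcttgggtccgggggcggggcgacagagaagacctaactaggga
Rela: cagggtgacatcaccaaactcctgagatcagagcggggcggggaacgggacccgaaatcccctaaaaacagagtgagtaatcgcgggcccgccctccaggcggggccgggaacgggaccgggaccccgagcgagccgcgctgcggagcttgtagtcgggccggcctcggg
Nfkb2: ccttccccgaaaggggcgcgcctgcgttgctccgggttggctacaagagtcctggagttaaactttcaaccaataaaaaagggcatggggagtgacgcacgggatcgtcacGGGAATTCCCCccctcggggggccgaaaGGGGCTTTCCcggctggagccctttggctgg
The capitals in Rel, and the first run of capitals in Nfkb2, hold 2 overlapping matches, 1 on each strand. Bcl3 carries its match 2 bases after the start base, Nfkbia 29 bases before it, and Nfkbie 106 bases before it. Tnfaip3 has matches 125 and 12 bases before its start. A match is a string of letters and no evidence of binding, and the absence of a match in Rela covers this window only. The GC box (GGGCGG, both strands) was present in 7 of the 7 members against 38.2% of genes, and the TATA box (TATAAA, both strands) in 2 of 7 against 15.7%.

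Libraries held between 15814863 and 24980864 counted reads, with a median of 19469782.5, and each member had between 100 and 4312 reads in every library. The counting error at the mean read number of a group was 1.56 to 9.05%, and the coefficient of variation between hearts exceeded it in 54 of the 60 combinations of member and group; the 6 others were Nfkb1 and Rela in D10 controls, Nfkbie in D15 controls, and Rel in D10 controls and in both D21 groups. Levels are given as CPM (read counts scaled to library size with TMM factors), and a change was called when an edgeR quasi-likelihood test gave a Benjamini-Hochberg adjusted p under 0.01 over all genes tested together with a difference of at least 2-fold, the limits the study used. The library of 1 heart stood apart: D10 EAM replicate 1 had 195 CPM of Ptprc, which encodes the pan-leukocyte antigen CD45, against 27.6 to 55.7 in the other 3 D10 EAM hearts and 23.8 to 37.9 in the D10 controls. The 4 D21 EAM libraries carry a different library code from the other 20, so at D21 the code and EAM cannot be told apart. The labels name the hearts as separate samples without saying what a replicate number marks.

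**Figure D1:**
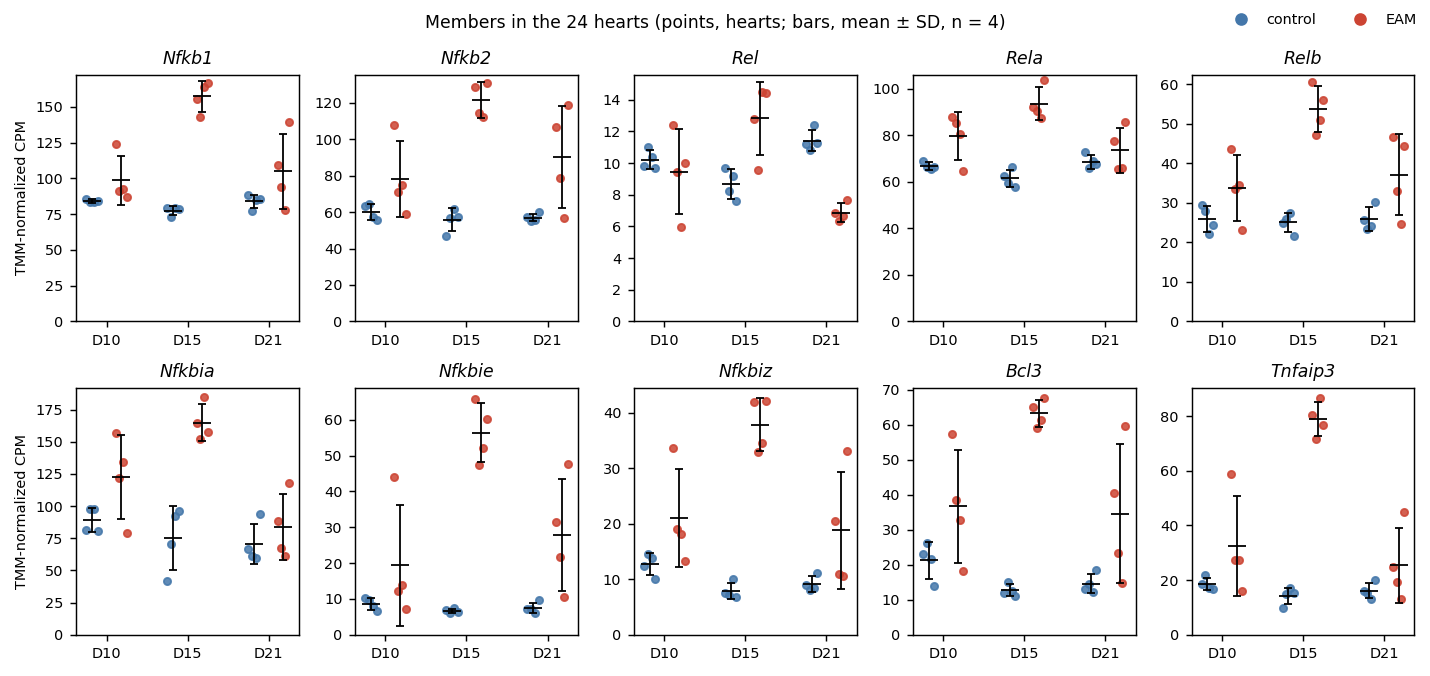
TMM-normalized CPM (y axis, linear from 0, scaled separately for each gene) of the 10 members in each heart by day (x axis), controls in blue and EAM in red, with the mean and SD of 4 hearts as bars. At D15 the EAM hearts lay above the controls for every member but Rel, at D10 EAM replicate 1 was the highest EAM heart in 10 of 10 panels, and at D21 Rel was lower in all 4 EAM hearts.

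At D15 subunits and inhibitors of the pathway were higher in EAM hearts. 8 of the 10 members rose by the study's limits, where 18.1% of all 15693 genes tested did, and the median log2 fold change was 1.14 over the members against 0.02 over all genes. Nfkbie, Tnfaip3, Bcl3 and Nfkbiz rose by 2.28 to 3.08 on the log2 scale, and the subunits Nfkb1, Nfkb2 and Relb and the inhibitor Nfkbia rose by 1.04 to 1.14. Rela and Rel were higher by less than 2-fold. Without the fold limit all 10 passed, as did 33.3% of all genes in the same direction. All 4 EAM hearts were above all 4 controls for 9 members, a separation that 35.6% of genes showed.

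Among the inhibitors, Nfkbie, which encodes IκBε, was at 65.8, 47.45, 52.1 and 60.25 CPM in EAM replicates 1 to 4 and at 6.84, 6.09, 7.44 and 6.49 CPM in the controls (log2 fold change 3.08, SE 0.12, edgeR adjusted p = 5.37e-08). Its EAM range and its control range were farther apart, in proportion, than those of any other member. Nfkbia, which encodes IκBα, was at 165, 152, 185 and 157.5 CPM in EAM hearts and at 42.1, 70.75, 92.55 and 96.1 CPM in controls (log2 fold change 1.14, SE 0.22, edgeR adjusted p = 0.00121). The groups did not overlap, but the controls of Nfkbia were spread more widely than those of any other member at D15 (coefficient of variation 33.0%), and without control replicate 1 the log2 fold change was 0.96, short of 2-fold.

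The nuclear family members moved together. Bcl3, a partner of p50 and p52 homodimers, was at 65.1, 59.0, 61.2 and 67.7 CPM in EAM hearts and at 12.1, 15.05, 12.6 and 11.15 CPM in controls (log2 fold change 2.33, SE 0.10, edgeR adjusted p = 1.06e-07). Nfkbiz, which encodes IκBζ, a co-activator of a subset of inflammatory genes, was at 41.9, 32.9, 34.5 and 42.0 CPM against 7.52, 7.09, 9.99 and 6.84 CPM (log2 fold change 2.28, SE 0.14, edgeR adjusted p = 9.88e-07). Tnfaip3, the gene for A20, was at 80.4, 71.7, 86.5 and 76.6 CPM in EAM hearts and at 9.97, 14.8, 17.0 and 15.2 CPM in controls (log2 fold change 2.48, SE 0.15, edgeR adjusted p = 8.01e-07). For all 3 genes the lowest EAM heart was more than 3 times the highest control.

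Of the subunits, Nfkb1 was at 155, 143, 164 and 167 CPM in EAM hearts and at 79.1, 72.7, 79.55 and 78.4 CPM in controls (log2 fold change 1.04, SE 0.06, edgeR adjusted p = 9.93e-07). Nfkb2 was at 129, 114.5, 112 and 131 CPM against 47.1, 57.0, 61.9 and 57.3 CPM, with a log2 fold change of 1.14 (SE 0.10). Relb, its usual dimer partner, was at 60.5, 47.1, 50.95 and 55.9 CPM against 24.9, 26.0, 27.5 and 21.6 CPM, with a log2 fold change of 1.11 (SE 0.10). Nfkb1 stood close to the 2-fold limit, and its log2 fold change was 0.99 when all 24 libraries were fitted together.

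Rela and Rel had the smallest D15 changes of the members. Rela was at 92.3, 90.6, 87.6 and 104 CPM in EAM hearts and at 62.5, 59.5, 66.4 and 58.0 CPM in controls (log2 fold change 0.62, SE 0.07, edgeR adjusted p = 5.13e-05). Rel, which encodes c-Rel, was at 12.8, 9.58, 14.5 and 14.5 CPM against 9.71, 8.26, 9.21 and 7.61 CPM (log2 fold change 0.57, SE 0.15, edgeR adjusted p = 0.00556). The Rela groups were separate, and for Rel the lowest EAM heart was just below the highest control. Rel carries a κB match in the window printed above and Rela none. The part of κB matches in the members' changes was not tested.

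**Figure D2:**
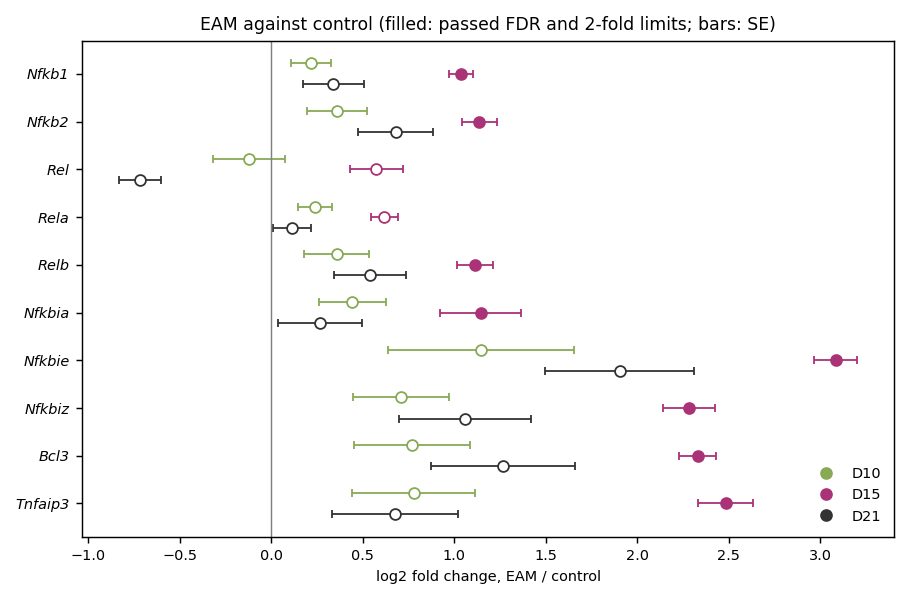
Log2 fold change of EAM against control (x axis) for each member (y axis) at D10, D15 and D21, with the SE as bars and filled points where the adjusted p was under 0.01 and the change at least 2-fold. Filled points occur at D15 only, from 1.04 for Nfkb1 to 3.08 for Nfkbie, and Rel is the member below 0 at D10 and D21.

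At D10 no member was called by edgeR or DESeq2, and the edgeR quasi-likelihood test called no gene among all 15029 tested either (percent called 0 in either direction); the smallest adjusted p of any gene was 0.249. DESeq2 called 52 genes, the edgeR likelihood ratio test 47 and the edgeR exact test 42, none of them a member. At an unadjusted p under 0.05, 5 members were higher, namely Rela, Nfkbia, Nfkbiz, Bcl3 and Tnfaip3, and 9.49% of all genes were higher by that measure. The members' median log2 fold change was 0.40, against -0.01 over all genes. Against the 12 controls of all 3 days together, 4 members were called higher (Nfkbie, Nfkbiz, Bcl3 and Tnfaip3), as were 4.12% of genes. That comparison mixes EAM with day and age. All 4 had lower mean levels in the D15 and D21 controls than in the D10 controls. The D10 values leaned on 1 heart. Nfkbie was at 44.15 CPM in EAM replicate 1 and at 12.1, 14.0 and 7.16 CPM in the other 3, beside 10.3, 9.66, 7.998 and 6.58 CPM in controls, and its log2 fold change of 1.15 (SE 0.51) became 0.34 without that heart. Tnfaip3 was at 58.6 CPM in replicate 1 and at 27.4, 27.5 and 15.9 CPM in the others, beside 18.7, 21.8, 17.2 and 16.8 CPM in controls, and its log2 fold change of 0.78 (SE 0.34) became 0.33. D10 EAM replicate 4 was at the other end: it was the lowest EAM heart for 9 of the 10 members, all but Rel.

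Bcl3, Nfkbiz and Nfkbia had a similar profile at D10. Bcl3 was at 57.25, 38.4, 32.8 and 18.3 CPM in EAM hearts and at 23.2, 26.25, 21.6 and 13.9 CPM in controls (log2 fold change 0.77, SE 0.32). Nfkbiz was at 33.6, 19.0, 18.1 and 13.3 CPM against 12.4, 14.55, 13.8 and 10.1 CPM (log2 fold change 0.71, SE 0.26), and Nfkbia at 156.5, 122, 134 and 78.9 CPM against 81.5, 97.4, 97.8 and 80.6 CPM (log2 fold change 0.44, SE 0.18). In each of the 3 genes the first 3 EAM hearts were above all controls and replicate 4 was not. Without replicate 1 their log2 fold changes were 0.47, 0.39 and 0.31. Of the subunits, Nfkb1 alone had all 4 EAM hearts above all controls, at 124, 91.0, 92.8 and 86.7 CPM against 83.2 to 85.8 CPM, a separation that 4.24% of genes showed (log2 fold change 0.22, SE 0.11, and 0.09 without replicate 1). Nfkb2, Relb and Rela had log2 fold changes of 0.36 (SE 0.16), 0.36 (SE 0.18) and 0.24 (SE 0.09), and Rel one of -0.12 (SE 0.20), which turned to 0.06 without EAM replicate 3.

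At D21 the EAM hearts differed widely from each other in most members, as the D10 EAM hearts did. No member was called by the edgeR quasi-likelihood test, where 4.3% of the 15266 genes tested were called higher and 1.3% lower, and the members' median log2 fold change was 0.61 against -0.01 over all genes. At an unadjusted p under 0.05, 5 members were higher (Nfkb2, Relb, Nfkbie, Nfkbiz and Bcl3), as were 25.4% of genes, and DESeq2 called 2, Nfkbie and Bcl3, beside 8.93% of genes called higher by that tool; the likelihood ratio and exact tests of edgeR called the same 2. Nfkbie was the only member with all 4 EAM hearts above all controls, which 16.5% of genes showed, at 31.5, 21.6, 10.7 and 47.7 CPM against 7.24, 7.22, 6.17 and 9.59 CPM (log2 fold change 1.90, SE 0.41, edgeR adjusted p = 0.012). With the replicate number as a block, Nfkbie passed (1.73, edgeR adjusted p = 0.00918). Bcl3 was at 40.6, 23.4, 14.7 and 59.8 CPM against 13.1, 14.5, 12.3 and 18.5 CPM (log2 fold change 1.27, SE 0.39, edgeR adjusted p = 0.0383). EAM replicate 3 fell inside the control range for Bcl3, and without it both Nfkbie (2.15) and Bcl3 (1.495) were called, as calls over all genes went from 856 to 2117.

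The order of the hearts at D21 was the same in most members: replicate 4 was highest, then 1, then 2 and then 3 for Bcl3, Nfkb1, Nfkb2, Nfkbia, Nfkbie, Nfkbiz and Tnfaip3. Ptprc followed that order too, at 151, 96.3, 47.65 and 233 CPM in EAM replicates 1 to 4 against 15.0 to 29.3 CPM in controls. The share of all genes with that order was not counted, so the order is not shown to be particular to the members. Nfkbiz was at 20.5, 10.96, 10.6 and 33.1 CPM against 8.08 to 11.2 CPM (log2 fold change 1.06, SE 0.36, edgeR adjusted p = 0.0515). Tnfaip3 was at 24.8, 19.2, 12.95 and 44.7 CPM against 13.2 to 19.9 CPM (log2 fold change 0.68, SE 0.34, edgeR adjusted p = 0.151), and without replicate 4 its log2 fold change was 0.25. Nfkbia, the member with the highest level per length, was at 88.1, 67.4, 61.3 and 118 CPM against 59.9 to 93.6 CPM (log2 fold change 0.27, SE 0.23, and 0.05 without replicate 4). In Nfkbiz and Tnfaip3 the hearts with the least Ptprc overlapped the controls.

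The subunits other than Rel had log2 fold changes at D21 of 0.68 (SE 0.21) for Nfkb2, 0.54 (SE 0.20) for Relb, 0.34 (SE 0.17) for Nfkb1 and 0.11 (SE 0.10) for Rela, and their EAM and control hearts overlapped. Nfkb2 had the smallest adjusted p among them, 0.0364 by edgeR, at 106.5, 78.8, 56.8 and 119 CPM against 55.2 to 59.9 CPM.

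Rel went the other way at D21. It was at 6.83, 6.32, 6.64 and 7.70 CPM in EAM hearts and at 11.2, 10.85, 12.4 and 11.3 CPM in controls, so every EAM heart was below every control, as for 19.4% of all genes. The log2 fold change was -0.72 (SE 0.11, edgeR adjusted p = 0.00587), short of 2-fold, and 3.43% of genes were lower by the same test without a fold limit. With the replicate number as a block the adjusted p by edgeR was 0.0144. With a heart left out the log2 fold change ran from -0.78 to -0.67, and the edgeR adjusted p stayed under 0.01 without EAM replicate 3 or 4 and was 0.0129 to 0.0255 in the other 6 fits. Among the 4 EAM hearts Rel varied little (coefficient of variation 8.58%, with a counting error of 9.02%), in contrast to 24.99% for Nfkb1 and 57.6% for Bcl3. Log2 fold changes at D21 also moved with gene length: the median over all genes was 0.20 for genes of 1 to 1000 exon bases and -0.10 for the 833 genes of 7001 to 8000 exon bases, the class of Rel, of which 10.9% were at or below the value of Rel. The medians in the same classes were 0.04 and 0.01 at D15 and 0.01 and -0.04 at D10. For genes over 10000 bases they were -0.11 at D10, -0.03 at D15 and -0.27 at D21. The part of length and of the library code in the Rel result was not tested.

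The size of the EAM effect itself differed between days for some members. From D10 to D15 the difference in log2 fold change passed for Tnfaip3 (1.66, SE 0.44), Nfkbiz (1.52, SE 0.41) and Nfkb1 (0.77, SE 0.17), with edgeR adjusted p of 0.00612, 0.00597 and 0.00232, and 9.4% of all 16318 genes passed in that direction. All 10 differences were above 0, with a median of 0.75 against -0.03 over all genes. The 10 values rest on the same hearts. Nfkb1 passed with any single library of the 4 groups left out; Nfkbiz and Tnfaip3 each passed in 5 of 16 such fits, and 8 members passed without D10 EAM replicate 1, where 6754 genes passed in either direction in place of 4315. From D15 to D21 the difference passed for Tnfaip3 (-1.80, SE 0.45), Rel (-1.28, SE 0.22), Nfkb1 (-0.69, SE 0.17) and Rela (-0.49, SE 0.12), with edgeR adjusted p of 0.00646, 0.00116, 0.00627 and 0.00675, and 3.79% of genes passed in that direction. Rel passed in 16 of 16 fits with a library left out, and the other 3 in 5 of 16 each. The D21 EAM libraries alone carry the other library code, and leaving out single libraries does not separate the code from EAM. The part of the code and of gene length in these D15 to D21 differences was not tested. The D10 to D15 and the D15 to D21 differences share the D15 hearts. For Nfkbie the differences were 1.89 (SE 0.59) and -1.17 (SE 0.58), and neither passed.

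Control hearts gave the background over time. Among the members 0 were called between D10 and D15 or between D10 and D21 controls, by edgeR or by DESeq2; edgeR called 0.00613% of genes higher and 0.0735% lower by D15, and 0.153% higher and 0.116% lower by D21. At an unadjusted p under 0.05, 2 members were lower at D15, beside 3.21% of genes, and none at D21. Those 2, Bcl3 and Nfkbiz, had control log2 fold changes from D10 to D15 of -0.76 (SE 0.33) and -0.71 (SE 0.30), with edgeR adjusted p of 0.64 and 0.607. The D10 controls of Bcl3 were at 13.9 to 26.25 CPM and its D15 controls at 11.15 to 15.05 CPM. Time after immunization and age cannot be told apart in these controls.

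Whether the members kept their proportions was read within each heart as reads per Rela read. In controls the mean ratio of Tnfaip3 to Rela was 0.231 ± 0.048 (SD, n = 4) at D15, and in EAM hearts it was 0.847 ± 0.109. Nfkbie went from 0.109 ± 0.005 to 0.603 ± 0.080 reads per Rela read, and Bcl3 from 0.207 ± 0.031 to 0.677 ± 0.030. By limma on log2(CPM + 1) less that of Rela, the ratio rose at D15 for 7 of the 9 other members, where 14.6% of all genes did. The changes were 2.30 for Nfkbie, 1.82 for Tnfaip3, 1.64 for Bcl3, 1.55 for Nfkbiz, 0.52 for Nfkb2, 0.48 for Relb and 0.42 for Nfkb1 on the log2 scale. Nfkbia (0.59, SE 0.22, limma adjusted p = 0.0273) and Rel (-0.09, SE 0.14, limma adjusted p = 0.534) did not pass. With the replicate number as a block, Nfkbia passed in place of Nfkb1. Relative to Rela, then, 4 regulators moved by 1.55 to 2.30 on the log2 scale and 3 subunits by 0.42 to 0.52.

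**Figure D3:**
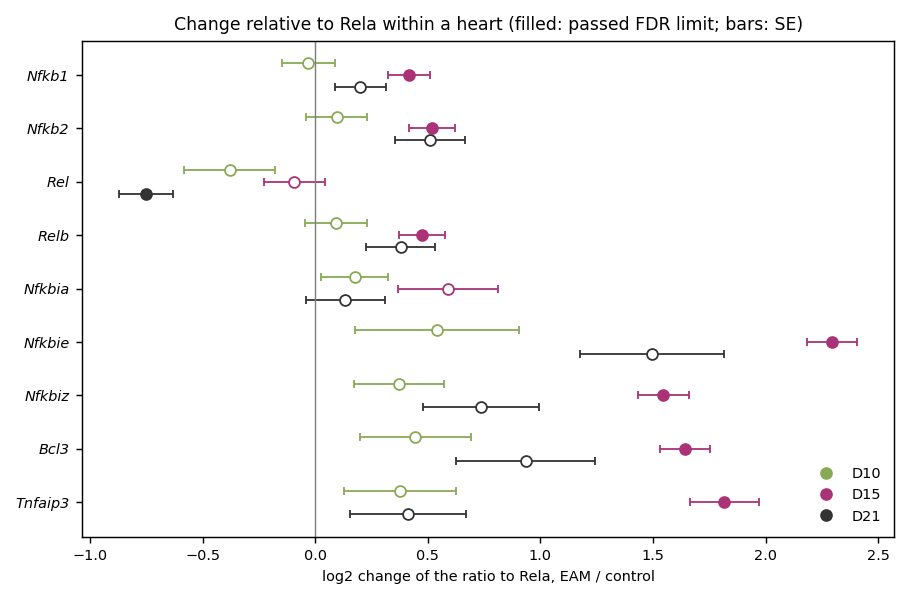
Log2 change, EAM against control, of each member's ratio to Rela within a heart (x axis) at D10, D15 and D21, with SE as bars and filled points where the limma adjusted p was under 0.01. At D15, 7 members are filled to the right of 0, and at D21 Rel is filled at -0.75.

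At D10 no ratio changed by limma, among the members or among all genes (percent called 0), nor did any member pass at an unadjusted p under 0.05 or with the Rela count as an edgeR offset; the members' values ran from -0.38 for Rel to 0.54 for Nfkbie. At D21 the ratio of Rel to Rela fell by 0.75 on the log2 scale (SE 0.12, limma adjusted p = 0.00531), from 0.166 ± 0.011 in controls to 0.094 ± 0.006 reads per Rela read in EAM hearts, and 1.52% of genes fell. This D21 call passed in 2 of 8 fits that left out a single library, those without EAM replicate 3 or 4. In the 6 others 24 to 91 genes passed in all, in place of 893. It did not pass with the replicate number as a block, where the ratio of Nfkbie passed instead.

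Levels of different genes were compared per length, as CPM per kilobase of exon (RPKM, with the basic annotation). Nfkbia was the most abundant member in all 6 groups, from 44.6 ± 9.96 RPKM in D21 controls to 104.5 ± 9.06 RPKM in D15 EAM hearts, and Rel the least abundant, from 0.921 ± 0.079 to 1.72 ± 0.31 RPKM (SD, n = 4 each). In D15 controls the order below Nfkbia was Rela at 22.7 ± 1.37 RPKM, Nfkb1 at 18.8 ± 0.77, Nfkb2 at 13.2 ± 1.47, Relb at 11.3 ± 1.13, Bcl3 at 6.87 ± 0.90, Tnfaip3 at 3.10 ± 0.65, Nfkbie at 2.76 ± 0.23, Nfkbiz at 1.90 ± 0.35 and Rel at 1.17 ± 0.13. Tnfaip3 and Nfkbie, and Nfkb2 and Relb, were within 2 SD of each other there. Nfkbia was within 2 SD of Rela and of Nfkb1 too, by its own wide SD (47.8 ± 15.8 RPKM). Its lowest heart, at 26.7 RPKM, was still above the highest Rela heart at 24.5 RPKM. In D15 EAM hearts Nfkb1 (38.1 ± 2.56 RPKM), Rela (34.5 ± 2.63) and Bcl3 (34.2 ± 2.12) stood together in places 2 to 4, and Bcl3 had thereby moved past Nfkb2 (28.8 ± 2.30) and Relb (24.25 ± 2.63). With all annotated exons as the length, chosen after seeing the data, Nfkbia was again highest and Rel lowest in every group, but Nfkb1, whose exons then add up to 12061 bases in place of 4124, took places 4 to 7, and in D15 EAM hearts Bcl3 (25.6 RPKM) stood in place 4 behind Nfkb2 (26.5 RPKM) and so did not pass it.

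Summed over the 10 members, the level was 129.6 ± 17.9 RPKM in D15 controls and 315.5 ± 17.6 RPKM in D15 EAM hearts. The 5 subunits made up 52.5% ± 6.89 of that sum in D15 controls (46.5 to 62.25% over the 4 hearts) and 40.4% ± 1.59 in D15 EAM hearts (38.3 to 42.15%). Bcl3 and Nfkbiz together went from 6.87% ± 1.16 to 13.7% ± 0.64, and Tnfaip3 from 2.37% ± 0.23 to 5.44% ± 0.30. Nfkbia and Nfkbie together held 38.25% ± 7.70 and 40.45% ± 1.92, which overlapped. The share of Nfkbie went from 2.16% to 7.32%. That of Nfkbia was 36.1% ± 8.01 (25.2 to 43.7%) in D15 controls and 33.1% ± 2.40 (30.7 to 36.3%) in D15 EAM hearts, which also overlapped. The subunit share was 48.0% ± 3.07 in D10 controls and 43.8% ± 4.75 in D10 EAM hearts, and at D21 it was 54.5% ± 4.27 and 50.7% ± 4.67; both pairs overlapped. The D15 subunit shares were 45.3% and 34.2% with all annotated exons as the length.

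The rest of the pathway was read from lists of genes. At D15, when 18.1% of all genes were called higher, 18 of 19 tested receptors and ligands rose. The cytokine genes Tnfsf11 (RANKL), Il1a and Il1b were at 14.7, 23.0 and 153 CPM on average in EAM hearts and at 0.0146, 0.0849 and 2.50 CPM in controls. Adaptors and ubiquitin ligases followed, with 11 of 21 called higher, among them Traf1 (log2 fold change 3.67, SE 0.18) and Card9 (3.11, SE 0.14). Of the 10 genes of the IKK complex and of the kinases above it with their binding proteins, 4 rose: Ikbke (5.08, SE 0.11), the gene for IKKε, Map3k14 (1.41, SE 0.09), Ikbkb (1.02, SE 0.06) and Tbk1 (1.02, SE 0.07). Ikbkg, the scaffold NEMO, was at 57.5 CPM in EAM hearts and 70.8 CPM in controls, and Chuk, the gene for IKKα, at 50.15 and 46.6 CPM. Without a fold limit 4 of the 10 were lower (Ikbkg, Map3k7, Tab1 and Tab3), beside 31.2% of all genes, and the list's median log2 fold change was 0.13. Ikbke was also called at D21 (3.22, SE 0.51), when EAM hearts were at 8.20 to 37.1 CPM.

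Of 10 other negative regulators 2 rose at D15, a share close to that of all genes (18.1%), namely the A20-binding genes Tnip3 (1.90, SE 0.18) and Tnip2 (1.03, SE 0.09). Without a fold limit 8 were higher and 1 lower, beside 33.3% and 31.2% of all genes. None of the 6 genes of the machinery that degrades IκB was called, and their median log2 fold change was -0.43; without a fold limit, 4 were lower, read against the same 31.2% of all genes. Among the other IκB genes, Nfkbid (IκBNS) rose from 0.333 ± 0.109 to 8.48 ± 1.18 CPM (log2 fold change 4.67, SE 0.21), and Nfkbib (IκBβ) was at 24.3 and 30.65 CPM. Of 29 tested textbook target genes 28 rose at D15, Il6 from 0.231 to 46.2 CPM, Cxcl2 from 0.0814 to 13.2 CPM and Csf3 from 0 in all 4 controls to 5.29 CPM, and Sod2 had a log2 fold change of -0.996, just short of the limit. The list medians were 3.67 for targets and 3.08 for receptors and ligands, against 1.14 for the members and 0.02 for all genes. The lists share genes: Tnf, Il1b, Cd40, Lta and Ltb are in both of these, Birc3 and Traf1 are among targets and adaptors, and Cd14 is a receptor and a macrophage marker. At D10 no gene of any list was called, and at D21 the calls were 6 of 25 targets, 4 of 16 receptors and ligands, 2 of 21 adaptors, 1 of 10 IKK and upstream genes and 1 of 2 other IκB genes, where 4.3% of all genes were called higher.

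**Figure D4:**
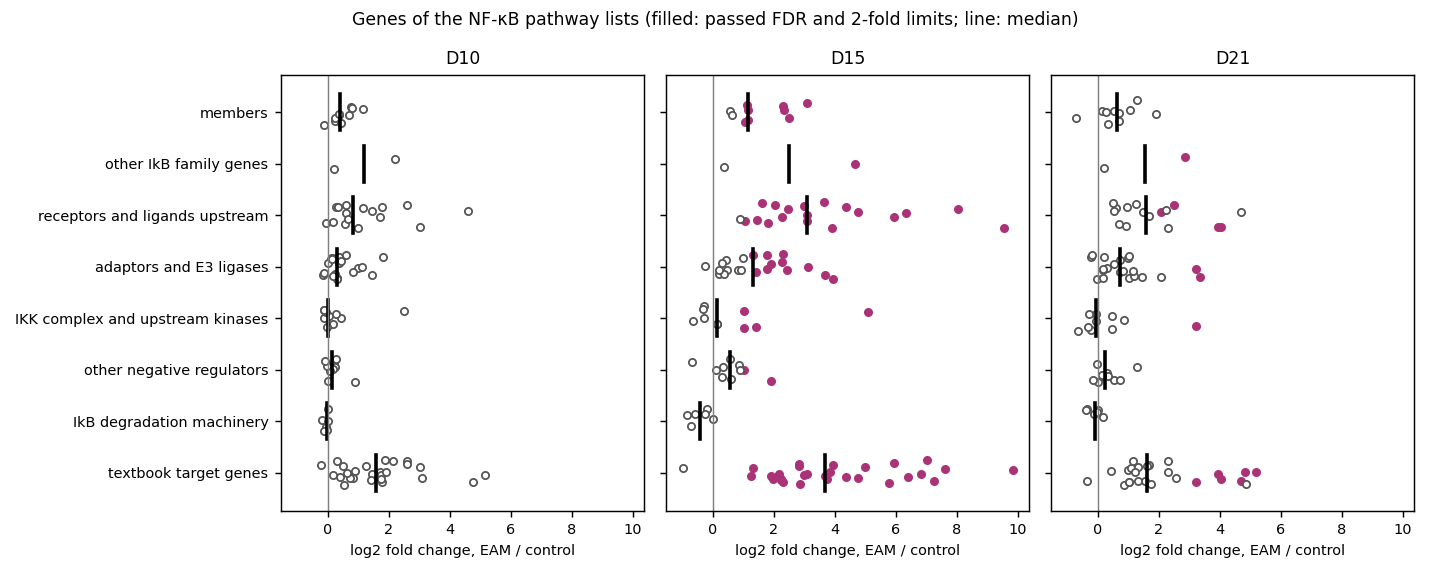
Log2 fold change of EAM against control (x axis) for the tested genes of 8 lists (y axis) at D10, D15 and D21; each point is a gene, filled where called, and the line is the list's median. The D15 medians are 3.67 for targets, 3.08 for receptors and ligands, 1.14 for the members and -0.43 for the degradation machinery.

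Markers of heart and immune cells moved at the same time as the members. In D15 EAM hearts 10 of 10 monocyte and macrophage markers, 8 of 8 neutrophil, 8 of 8 T cell and 4 of 4 NK cell markers rose, and 0 of 3 tested B cell markers. Of all genes, 18.1% were called higher at D15. The summed macrophage markers ran from 3508 to 4813 CPM in EAM hearts and from 466 to 523 CPM in controls, the neutrophil markers from 569 to 984 against 17.5 to 82.5 CPM, and the T cell markers from 60.6 to 88.01 against 2.65 to 3.98 CPM. NK markers summed to 8.41 to 15.6 against 0.520 to 1.04 CPM, and B cell markers to 2.06 to 12.2 against 0.826 to 2.19 CPM. Of the tissue's own cells, 3 of 6 cardiomyocyte and 2 of 5 endothelial markers were called lower, as were 12.9% of all genes, and 2 of 5 fibroblast markers (Col1a1 and Col3a1) higher. The cardiomyocyte sum, which identifies the tissue as heart, ran from 6829 to 17590 CPM in D15 EAM hearts and from 24670 to 29110 CPM in controls. No marker of any list was at 0 in all 8 libraries. In whole tissue, more cells of a type and more RNA per cell cannot be told apart, and the part of cell makeup in the members' changes was not tested.

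At D21, 7 of 10 macrophage, 8 of 8 T cell, 1 of 8 neutrophil and 2 of 2 tested NK markers were called higher, where 4.3% of all genes were. Macrophage sums ran from 1160 to 4139 CPM in EAM hearts and from 407 to 652 CPM in controls. At D10 none was called, and the macrophage sum ran from 716.5 to 3070 CPM in EAM hearts and from 467 to 1050 CPM in controls.

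The genes whose levels followed each member most closely over the 24 libraries were found by the root mean square difference of centred log2(CPM + 1), among 14270 genes. The libraries share the same groups, so likeness can largely reflect them, and how far it does was not tested. Nfkbie was nearest to Tmem173 (0.15) and Casp1 (0.18), where the median gene differed by 1.17. Tnfaip3 was nearest to Birc3 (0.23) and Nod2 (0.27), Bcl3 to Icam1 (0.20) and Arid5a (0.21), Nfkbiz to Arid5a (0.16) and Fosl2 (0.20), and Nfkbia to Zfp36 (0.23) and Ripk2 (0.23). Nfkb1 was nearest to Pak2 (0.08) and Dhx38 (0.08), Nfkb2 to Arhgdia (0.09) and Atf6b (0.10), Relb to Ifnar1 (0.12) and Tfe3 (0.12), Rela to Sptlc1 (0.09) and Ssrp1 (0.10), and Rel to Zfp26 (0.14) and Nup98 (0.15). Among the members themselves, Nfkb2 and Relb were the closest pair (0.12). Rel and Nfkbie were the farthest apart (1.12).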

How the data were processed

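The authors aligned 75-base read pairs to GRCm38 with HISAT2 2.0.4, removed duplicates with Picard and deposited raw counts per gene from featureCounts, with directional libraries. The deposited counts hold 41388 genes and 92 spike-in features without reads. Replicates differed by more than sampling noise. Within each time point, genes reaching 10 reads in 4 or more of the 8 libraries were tested with edgeR 4.0.16 (TMM, quasi-likelihood, R 4.3.3), called at an adjusted p under 0.01 and at least 2-fold. Differences between time points used 1 fit of 24 libraries with no fold limit, ratios to Rela limma 3.58.1 on log2(CPM + 1). Standard errors are the log2 fold change over the root of F. Fits were tested on simulated data. All members were named, with up to 3 genes a list by change at D15, one of which is not reported here. The members and lists were chosen with earlier results of these data known. P-values measure the spread between these hearts. At D21 same-numbered hearts deviated together (correlations 0.108 to 0.32), at D10 and D15 they did not all do so. Alternatives included DESeq2 1.42.0, other scalings, filters, controls, a replicate block and single libraries left out.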

Additional observations from a re-analysis of the deposited data

Results flagged for a closer look

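Nfkb1 in D10 EAM replicate 1 was at 124.3 CPM, far from the other 3 hearts of its group at 86.7 to 92.8 CPM, by Dixon's test in 1 of 60 groups tested, where chance gives about 1 in 20. The same heart had 195 CPM of Ptprc.

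The EAM effect differed between days by the tests given above. On the log2 scale the D15 effect exceeded that of D10 by 0.77 for Nfkb1, 1.52 for Nfkbiz and 1.66 for Tnfaip3. The D21 effect less that of D15 was -0.69 for Nfkb1, -1.28 for Rel, -0.49 for Rela and -1.80 for Tnfaip3.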

How the results depend on the processing

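Of 390 alternative values of single members' fold changes, 379 kept direction and side of the limits, and 1 reversed: Rel at D10, 0.0578 without EAM replicate 3 (lowest -0.277 without EAM replicate 1). The 8 members called at D15 were 7 to 8 with a heart left out. At D10, 4 members (Nfkbie, Nfkbiz, Bcl3 and Tnfaip3) were called against all 12 controls, where 665 genes were called in all (0 in the main test), and 0 in every other setting. At D21, 2 (Nfkbie and Bcl3) were called by the edgeR likelihood ratio test, the edgeR exact test, DESeq2, at an adjusted p of 0.05 and against all 12 controls, 3 in the fit of all 24 samples (1733 to 1891 genes called in all by these, 856 in the main test), 1 (Rel) without the fold limit, 1 (Nfkbie) with the replicate block, and 0 to 2 with a heart left out (10 to 2117 genes in all). With the block, fitted for the calls and the ratios within each day and not for the differences between days, no other count moved beyond 1.5 times, although at D15 the ratio of Nfkbia to Rela passed in place of Nfkb1. The D21 count of changed ratios was 2 with the Rela count as an edgeR offset and 0 to 4 with a heart left out (main count 1), where 1271 and 24 to 3102 genes passed in all (893 in the main test). The 3 differences between D15 and D10 were 5 by the likelihood ratio test, 6 by DESeq2, 9 at 0.05 and 1 to 8 with a heart left out (5035, 5475, 7556 and 2574 to 6754 genes in all, 4315 in the main test), and the 4 between D21 and D15 were 1 to 6 with a heart left out (967 to 4007 genes, 2033 in the main test). The causes were not tested. Total-count scaling moved the median of all genes at D15 from 0.02 to 0.17 and the members with it. Rel had as few as 102 reads in a library, and in both D21 groups its spread between hearts was no larger than counting error.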
